A study of Mus musculus with 12 samples.

Results

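The response of microglial preparations to lipopolysaccharide (LPS) was measured in mice labelled CPEB1 knockout, in 6 of the 12 libraries of the series. The 6 were taken by their labels: 3 libraries of untreated CPEB1 knockout mice (CPEB1-KO) and 3 of CPEB1 knockout mice killed 24 h after an injection of LPS (CPEB1-KO-LPS). All mice were C57BL6/J, aged 3 to 4 months, each library came from 1 animal, and the cells were enriched on Percoll density gradients before total RNA was made into poly(A) libraries. The other 6 libraries, wild type without (WT) and with LPS (WT-LPS), entered the model as further groups and are used here only for the comparison at the end. The labels do not state the LPS dose, the sex of the mice, whether untreated mice received vehicle, or which exons of Cpeb1 were removed.

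LPS, a glycolipid of the outer membrane of Gram-negative bacteria, is bound by CD14 and sensed by the complex of TLR4 and MD-2. The receptor signals through MyD88 to NF-κB, which drives cytokine and chemokine genes and its own inhibitors, and through TRIF to IRF3 and type I interferon, which then induces the interferon-stimulated genes through the ISRE, the element bound by STAT and IRF proteins. Microglia, the macrophages of the brain parenchyma, lose part of their resting signature when they respond, and other brain cells answer the cytokines that reach them. CPEB1 binds a sequence motif in certain mRNAs and regulates their poly(A) tails and translation.

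Cpeb1 itself (chr7:81347026-81458001 in GRCm38.p6, RefSeq annotation) was read at 17.6, 26.4 and 21.2 TPM without LPS and 34.6, 40.6 and 24.04 TPM after it, where the values of each group stand, here and below, in the order of replicates 1 to 3 and TPM is each gene's length-normalised share of the transcripts of its library. The difference between the groups was not called (log2 fold change 0.63 ± 0.31, FDR 0.276, where ± gives the standard error of the fitted log2 fold change here and below). The wild-type libraries held 19.9, 15.5 and 43.2 TPM in WT and 40.2, 24.1 and 45.1 TPM in WT-LPS, so the level of Cpeb1 RNA did not set the libraries labelled knockout apart from the wild type. A gene total cannot show a deletion of part of the gene, and the groups are therefore named by their labels throughout.

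The 6 libraries held 9253849 to 13544197 expected counts. Markers of microglia were abundant in all 6 (summed over 14 markers, 4970 to 8149 TPM without LPS and 2675 to 8148 TPM after it), beside RNA of other cells, among them neurons (14 markers, 4874 to 6864 and 3228 to 5851 TPM), choroid plexus and ependyma (13 markers, 8075 to 10060 and 2714 to 4058 TPM) and neutrophils (13 markers, 551 to 2983 and 1324 to 4098 TPM). Of the microglial markers none was at 0 in any library. On the second principal component of the 6 libraries (18.2% of the variance) CPEB1-KO-LPS replicate 3 stood at 37.2 and the other LPS libraries at -26.4 and -26.1. That library also held more haemoglobin reads (1.5% of counts, against 0.146% and 0.242%) and a higher mean level of microglial markers (7.64 on the log2(TPM + 1) scale, against 6.43 and 5.78). CPEB1-KO replicate 1 had the highest mean level of B cell markers (3.31 on that scale, against 1.52 and 1.17), T and NK cell markers (2.45 against 1.59 and 1.47) and interferon-stimulated genes (3.38 against 2.54 and 2.33). Over all 15295 genes tested CPEB1-KO-LPS replicate 3 was the highest LPS library for 3304 and the lowest for 10269. Where leaving out 1 library moved the fitted fold of a called gene by over 1.5 times, its log2 fold change without that library follows the FDR. The cause of either deviation was not tested.

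Of 15295 genes with enough counts to be tested, 627 were called higher 24 h after LPS (4.10%) and 325 lower (2.12%). These shares are the comparison for each count of called list members below. A gene is called when its false discovery rate (FDR) in the edgeR quasi-likelihood test, adjusted over all genes tested, is below 0.05. Among the called genes 522 rose and 271 fell at least 2-fold, and 179 rose and 25 fell at least 8-fold. The median log2 fold change was 2.08 for the genes that rose and -1.49 for those that fell, while the median over all genes tested was -0.000245. The TPM ranges of the groups did not overlap for 2482 genes higher after LPS (16.2% of those tested) and 2291 lower (15%), and 624 of the 627 genes called higher and all 325 called lower were among them. The genes that rose made up 1.23% to 1.29% of all TPM in the untreated libraries and 5.47% to 6.94% after LPS. Those that fell made up 1.03% to 1.07% without LPS and 0.349% to 0.402% after it.

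**Figure D1:**
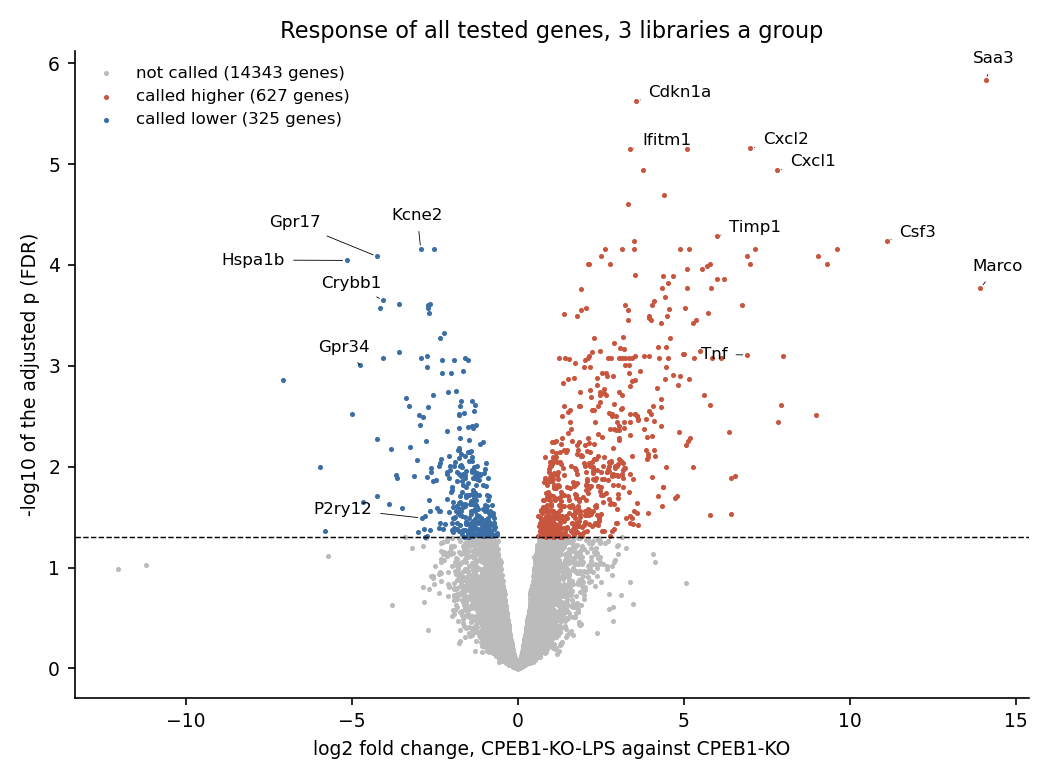
Each point is 1 of the 15295 genes tested, with the log2 fold change of CPEB1-KO-LPS against CPEB1-KO (3 libraries each) on the x axis and -log10 of the FDR on the y axis, and the dashed line marks an FDR of 0.05. The 627 genes called higher reach further from 0 than the 325 called lower, and the fold changes of genes with 0 to 3 untreated counts, among them Saa3, Marco and Csf3, depend on the prior count of the fit and are not estimates of their size.

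How many genes were called depended on each library. Fits that leave out 1 of the 6 libraries in turn, called leave-one-out fits below, gave 607, 355 and 385 calls without CPEB1-KO replicate 1, 2 or 3 and 628, 563 and 703 calls without CPEB1-KO-LPS replicate 1, 2 or 3. The higher calls ran from 250 to 468 and the lower calls from 105 to 275. In all 6 of these fits 230 of the genes called higher and 79 of those called lower were held. Without both CPEB1-KO replicate 1 and CPEB1-KO-LPS replicate 3, a choice made after seeing the data, 335 and 140 of the called genes were held. All 952 kept their sign. That was nearly fixed in advance, since 624 of the genes called higher and all 325 called lower had TPM ranges apart.

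Among the genes with the largest rises were a scavenger receptor, an acute-phase protein and a myeloid growth factor. Marco, a scavenger receptor for bacteria and particles, had 0 counts in the 3 untreated libraries and stood at 166, 304 and 66.5 TPM after LPS (7349 counts, at least 2398-fold higher against 3 counts over the untreated group, FDR 0.00017). Saa3, an acute-phase serum amyloid A made outside the liver, was read at 0, 0.45 and 0.53 TPM without LPS and 4842, 11717 and 4666 TPM after it. Its summed counts were 2 and 44547, a ratio of 21807 (95% counting interval 6036 to 180070), with an FDR of 1.48e-06. Csf3, the granulocyte colony-stimulating factor, had 0 counts without LPS and 25.3, 41.9 and 44.4 TPM after it (at least 299.9-fold higher, FDR 5.78e-05). Slc10a6, a transporter of steroid sulphates, likewise had 0 counts without LPS and 5.78, 5.75 and 4.5 TPM after it (at least 74.1-fold higher, FDR 8.11e-05). Every LPS library of these genes lay far above every untreated one. Groups apart in TPM were a condition for naming the largest rises and falls, so this separation is not a further result. For all but Csf3 the lowest LPS library was replicate 3.

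Among the sensors of LPS and other bacterial products, Tlr2 and Cd14 rose and Tlr4 was not called. Of 15 Toll-like receptors and cofactors tested, 3 were called higher (1 without CPEB1-KO replicate 2 or 3) and 1 lower. Tlr2, the receptor of bacterial lipopeptides, was read at 18.5, 10.3 and 6.6 TPM without LPS and 98.9, 84.2 and 357 TPM after it (log2 fold change 4.07 ± 0.66, FDR 0.0025, 2.87 without CPEB1-KO-LPS replicate 3). Cd14, which hands LPS to the TLR4 complex, was read at 52.97, 32.7 and 30 TPM without LPS and 197, 157 and 504 TPM after it (log2 fold change 3.02 ± 0.60, FDR 0.00941, held in 4 of 6 leave-one-out fits, FDR up to 0.0597 without CPEB1-KO replicate 2, 2.12 without CPEB1-KO-LPS replicate 3). In both genes all LPS libraries exceeded all untreated ones, with CPEB1-KO-LPS replicate 3 the highest. Tlr1, the partner of TLR2, rose from 8.57, 5.25 and 3.1 to 13.1, 15.3 and 25.4 TPM (log2 fold change 1.75 ± 0.40, FDR 0.0192, held in 3 of 6 leave-one-out fits, FDR up to 0.0964 without CPEB1-KO replicate 2). Tlr12 fell from 6.01, 3.11 and 2.22 to 0.89, 0.94 and 0.7 TPM (log2 fold change -2.14 ± 0.49, FDR 0.0209, held in 2 of 6 leave-one-out fits, FDR up to 0.0881 without CPEB1-KO replicate 1). The LPS receptor gene Tlr4 was read at 4.45, 4.62 and 3.21 TPM without LPS and 1.74, 1.72 and 3.48 TPM after it and was not called (log2 fold change -0.74 ± 0.46, FDR 0.396), nor was Ly96, which encodes MD-2 (log2 fold change 0.10 ± 0.48, FDR 0.928).

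The adaptors and kinases between receptor and NF-κB were called higher in 3 of 21 cases (1 without CPEB1-KO replicate 2 or 3) and lower in none. Ikbke, an inducible IκB kinase relative, stood at 1.28, 0.81 and 0.44 TPM without LPS and 19.6, 22.4 and 11.8 TPM after it (log2 fold change 4.42 ± 0.36, FDR 2.01e-05). Map3k8, the kinase TPL2 that links NF-κB to ERK signalling, rose from 4.39, 2.55 and 1.86 to 9.88, 13.7 and 31.2 TPM (log2 fold change 2.75 ± 0.54, FDR 0.00908, held in 4 of 6 leave-one-out fits, FDR up to 0.057 without CPEB1-KO replicate 2, 1.94 without CPEB1-KO-LPS replicate 3). Myd88, the shared adaptor of most Toll-like receptors, had a log2 fold change of 1.51 ± 0.42 (FDR 0.0485, held in 1 of 6 leave-one-out fits, FDR up to 0.193 without CPEB1-KO replicate 2). The TRIF adaptor Ticam1 was not called (log2 fold change -0.03 ± 0.35, FDR 0.968).

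Of 11 genes of NF-κB and its inhibitors 6 were called higher (4.10% over all genes tested) and none lower, with a median log2 fold change of 1.88. The IκB proteins, which hold NF-κB back or redirect it and are themselves its targets, were among the genes called. Nfkbia, which encodes IκBα, was read at 40.7, 32.6 and 29.8 TPM without LPS and 259, 301 and 754 TPM after it (log2 fold change 3.80 ± 0.52, FDR 0.000797, 2.95 without CPEB1-KO-LPS replicate 3). Nfkbiz, a nuclear IκB needed for secondary response genes, was read at 7.61, 5.2 and 3.26 TPM without LPS and 53.6, 56.5 and 159.6 TPM after it (log2 fold change 4.19 ± 0.64, FDR 0.00165, 3.29 without CPEB1-KO-LPS replicate 3). Bcl3, another nuclear IκB, was read at 1.89, 0.84 and 0.37 TPM without LPS and 22.99, 24.4 and 46.9 TPM after it (log2 fold change 5.04 ± 0.60, FDR 0.000266, 5.79 without CPEB1-KO replicate 1). All 3 genes had LPS libraries above every untreated library, and CPEB1-KO-LPS replicate 3 was the highest in each. Of the DNA-binding subunits, Nfkb2 (log2 fold change 2.33 ± 0.50, FDR 0.0137, held in 4 of 6 leave-one-out fits, FDR up to 0.0764 without CPEB1-KO replicate 3, 1.58 without CPEB1-KO-LPS replicate 3) and Relb (log2 fold change 2.07 ± 0.48, FDR 0.0215, held in 3 of 6 leave-one-out fits, FDR up to 0.107 without CPEB1-KO replicate 2, 1.33 without CPEB1-KO-LPS replicate 3) were called. Rela (log2 fold change 0.94 ± 0.31, FDR 0.0919) and Rel (log2 fold change 1.88 ± 0.64, FDR 0.109) were not. The count fell to 3 without CPEB1-KO replicate 2 or 3. CPEB1-KO-LPS replicate 3 was the highest LPS library for 10 of the 11 genes. Without it 4 were called and the median log2 fold change was 0.895.

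Chemokine genes of both large families rose. Of 13 CXC and CX3C chemokines tested 7 were called higher (median log2 fold change 2.98), and of 15 CC chemokines 11 were (median 4.10), with none lower in either family. The neutrophil attractants that signal through CXCR2 came from almost nothing: Cxcl1 was read at 0, 0.35 and 0.42 TPM without LPS and 53.5, 71.8 and 64.3 TPM after it (log2 fold change 7.81 ± 0.60, FDR 1.16e-05). Cxcl2 was read at 0.96, 1.31 and 1.22 TPM without LPS and 132, 126 and 176 TPM after it (log2 fold change 7.005 ± 0.48, FDR 7e-06). Cxcl3 had 1 count without LPS and 322 after it, a ratio of 315 (95% counting interval 56.2 to 12490), and its LPS libraries stood at 14.8, 8.72 and 36.4 TPM. For Cxcl1 and Cxcl2 all LPS libraries lay far above all untreated ones. Cxcl10, the interferon-induced attractant of T and NK cells, was read at 6, 2.29 and 3.6 TPM without LPS and 141, 514 and 643 TPM after it (log2 fold change 6.90 ± 0.68, FDR 8.11e-05), and here replicate 1 was the lowest LPS library.

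The monocyte attractants that act on CCR2 rose together. Ccl2 was read at 9.57, 5.09 and 7.39 TPM without LPS and 159, 190 and 369 TPM after it (log2 fold change 5.16 ± 0.49, FDR 7.01e-05, 4.51 without CPEB1-KO-LPS replicate 3), Ccl7 at 0.88, 0.67 and 1.34 TPM without LPS and 30.9, 30.3 and 86.2 TPM after it (log2 fold change 5.79 ± 0.60, FDR 9.73e-05, 4.89 without CPEB1-KO-LPS replicate 3) and Ccl12 at 124, 30.7 and 40.3 TPM without LPS and 583, 429.6 and 1877 TPM after it (log2 fold change 4.11 ± 0.70, FDR 0.00351, 5.01 without CPEB1-KO replicate 1 and 2.90 without CPEB1-KO-LPS replicate 3). Other CC chemokines rose as well. Ccl3 stood at 809.7, 1026 and 2594 TPM after LPS against 94.4, 28.3 and 32.9 TPM before (log2 fold change 4.98 ± 0.67, FDR 0.000764, 5.79 without CPEB1-KO replicate 1 and 4.06 without CPEB1-KO-LPS replicate 3). Ccl4 rose to 469, 574 and 1801 TPM from 36.6, 11.2 and 13.3 TPM (log2 fold change 5.73 ± 0.69, FDR 0.000303, 6.49 without CPEB1-KO replicate 1 and 4.61 without CPEB1-KO-LPS replicate 3), and Ccl5 to 539, 1084 and 1577 TPM from 43.3, 14.9 and 10.7 TPM (log2 fold change 5.70 ± 0.59, FDR 0.000103, 6.56 without CPEB1-KO replicate 1 and 5.08 without CPEB1-KO-LPS replicate 3). In each of these 6 genes the LPS libraries did not overlap the untreated ones and CPEB1-KO-LPS replicate 3 was the highest. CPEB1-KO replicate 1 was the highest untreated library of all but Ccl7. Ccl11, an attractant of eosinophils, had 0 counts before and 2.55, 7.53 and 5.47 TPM after LPS (at least 31.3-fold higher, FDR 0.00362). The count for the CC family was 9 to 11 in the leave-one-out fits and that of the CXC family 5 to 8, lowest without CPEB1-KO replicate 2 or 3.

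The promoters of 3 of these genes are shown because they carry the letters of the κB element bound by NF-κB. The RNA of these genes was higher in every LPS library than in every untreated one. The sequences are the 250 bases upstream of the RefSeq transcription start (GRCm38.p6), 5′ to 3′ along the gene, with matches to GGANNTTCC on either strand in capitals. Nfkbia lies at chr12:55492648-55492897, minus strand, Cxcl1 at chr5:90890995-90891244, plus strand and Cxcl2 at chr5:90903649-90903898, plus strand.
Nfkbia: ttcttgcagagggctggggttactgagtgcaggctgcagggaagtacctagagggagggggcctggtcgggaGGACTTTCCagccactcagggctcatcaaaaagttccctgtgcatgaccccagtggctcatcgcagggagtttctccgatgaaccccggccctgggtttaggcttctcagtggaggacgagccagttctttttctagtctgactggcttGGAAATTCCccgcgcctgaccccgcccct
Cxcl1: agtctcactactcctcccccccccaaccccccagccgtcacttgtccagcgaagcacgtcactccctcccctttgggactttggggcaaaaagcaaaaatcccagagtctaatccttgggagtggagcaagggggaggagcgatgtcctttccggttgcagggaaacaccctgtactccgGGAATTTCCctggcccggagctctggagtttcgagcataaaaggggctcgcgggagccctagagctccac
Cxcl2: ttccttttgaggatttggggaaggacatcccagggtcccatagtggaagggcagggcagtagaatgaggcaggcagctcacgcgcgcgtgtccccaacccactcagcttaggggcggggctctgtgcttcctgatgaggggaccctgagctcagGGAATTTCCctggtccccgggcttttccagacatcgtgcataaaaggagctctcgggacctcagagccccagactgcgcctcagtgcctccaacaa
Nfkbia has 2 matches, starting 178 and 29 bases upstream of the start, and Cxcl1 and Cxcl2 have 1 each, 70 and 96 bases upstream. The motif was found in 4.52% of the 12109 promoters of tested genes that RefSeq gave, in 7.74% of 491 promoters of genes called higher and in 3.98% of 251 promoters of genes called lower. Among the CXC and CX3C chemokines 4 of 11 promoters held it, among NF-κB and IκB genes 3 of 8, and among CC chemokines 1 of 10. A match describes letters and not binding. The promoter of a gene that fell is shown for comparison: P2ry12 (chr3:59262986-59263235, minus strand), described below, has a match 51 bases upstream.
P2ry12: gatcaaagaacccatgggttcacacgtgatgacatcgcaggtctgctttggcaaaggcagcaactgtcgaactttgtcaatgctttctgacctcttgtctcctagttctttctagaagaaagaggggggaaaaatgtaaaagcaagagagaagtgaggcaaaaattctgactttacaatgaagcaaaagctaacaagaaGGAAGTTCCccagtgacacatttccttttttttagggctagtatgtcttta

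The cytokines of the classical LPS response were high at 24 h. Of 26 cytokines and growth factors tested 11 were called higher and none lower, and 10 more, among them Il10, Ifnb1 and Ifng, had too few counts to be tested. Tnf was read at 4.05, 1.12 and 1.55 TPM without LPS and 99.4, 84.5 and 518 TPM after it (log2 fold change 6.90 ± 0.94, FDR 0.00078, 7.67 without CPEB1-KO replicate 1 and 5.30 without CPEB1-KO-LPS replicate 3). Il1b was read at 6.63, 7.87 and 2.43 TPM without LPS and 71.4, 73.97 and 389.6 TPM after it (log2 fold change 5.16 ± 0.77, FDR 0.00134, 3.61 without CPEB1-KO-LPS replicate 3). Il1a was read at 12.98, 6.35 and 4.87 TPM without LPS and 84.97, 109 and 369 TPM after it (log2 fold change 4.68 ± 0.69, FDR 0.00122, 3.51 without CPEB1-KO-LPS replicate 3). In these genes the LPS libraries exceeded the untreated ones without overlap, and CPEB1-KO-LPS replicate 3 held several times the level of the other LPS libraries. Without that library all 3 remained called (FDR 0.000263, 0.000416 and 0.00088). Il12b, the subunit shared by the cytokines IL-12 and IL-23, was read at 0.21, 0.11 and 0 TPM without LPS and 14, 16.1 and 119 TPM after it (log2 fold change 8.99 ± 1.40, FDR 0.00309, 9.77 without CPEB1-KO replicate 1 and 7.01 without CPEB1-KO-LPS replicate 3). Csf1, the growth factor of microglia themselves, rose less, from 15.9, 13.2 and 13.2 to 34.97, 26.2 and 25.3 TPM (log2 fold change 1.07 ± 0.21, FDR 0.00868, held in 4 of 6 leave-one-out fits, FDR up to 0.0609 without CPEB1-KO replicate 2). Tnfsf9, the ligand of 4-1BB, rose from 3.24, 2.85 and 2.37 to 14.9, 29.99 and 45.9 TPM (log2 fold change 3.53 ± 0.53, FDR 0.00138, 2.93 without CPEB1-KO-LPS replicate 3). Ltb, which is known from B cells, was read at 26.2, 7.49 and 3.62 TPM without LPS and 1.39, 2.44 and 5.88 TPM after it and was not called.

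Receptors of chemoattractants and cytokines rose in part, with 16 of 46 called higher and 3 lower, and which cells of the preparations carried them was not tested. The formyl peptide receptors, which sense bacterial peptides, were among the strongest: Fpr1 was read at 2.22, 1.58 and 0.54 TPM without LPS and 44, 60.6 and 24.8 TPM after it (log2 fold change 4.90 ± 0.47, FDR 7.01e-05). Fpr2 was read at 1.37, 2.43 and 0.14 TPM without LPS and 30.3, 35.9 and 19.8 TPM after it (log2 fold change 4.42 ± 0.50, FDR 0.00021, 5.24 without CPEB1-KO replicate 2). Gpr84, a receptor of medium-chain fatty acids, was read at 22.4, 12.5 and 9.37 TPM without LPS and 209.6, 149.8 and 323 TPM after it (log2 fold change 4.04 ± 0.47, FDR 0.000247). The LPS libraries of all 3 lay above the untreated ones, with CPEB1-KO-LPS replicate 3 lowest for Fpr1 and Fpr2 and highest for Gpr84. Osmr, the receptor of oncostatin M, rose from 0.14, 0.52 and 0.47 to 5.4, 8.79 and 8.47 TPM (log2 fold change 4.36 ± 0.48, FDR 0.00017). C5ar1, the receptor of C5a, rose from 6.13, 5.55 and 3.37 to 39.4, 25.5 and 86.3 TPM (log2 fold change 3.43 ± 0.52, FDR 0.00141, 2.60 without CPEB1-KO-LPS replicate 3). Of those called lower, Ccr2, the receptor of Ccl2, fell from 6.11, 3.94 and 1.17 to 0.59, 0.32 and 0.8 TPM (log2 fold change -2.69 ± 0.62, FDR 0.0214, held in 2 of 6 leave-one-out fits, FDR up to 0.0885 without CPEB1-KO-LPS replicate 2, -2.09 without CPEB1-KO replicate 1). Csf3r, the receptor of Csf3, fell from 51.3, 35.4 and 26.1 to 12.2, 9.07 and 12.2 TPM (log2 fold change -1.70 ± 0.34, FDR 0.00953, held in 5 of 6 leave-one-out fits, FDR up to 0.0504 without CPEB1-KO-LPS replicate 2). Only 8 of the receptors were called higher without CPEB1-KO replicate 2 or 3, and 9 without CPEB1-KO-LPS replicate 3, and none was called lower without CPEB1-KO-LPS replicate 2. The interleukin-1 receptor subunits Il1r1 (log2 fold change 0.90 ± 0.36, FDR 0.168) and Il1rap (log2 fold change -0.02 ± 0.19, FDR 0.963) were not called.

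Genes that restrain the response rose too. Of 25 brakes on inflammatory signalling 14 were called higher and none lower (median log2 fold change 1.60). Irg1, the mitochondrial enzyme that makes itaconate, was read at 0.07, 0 and 0.31 TPM without LPS and 40.4, 64.5 and 169 TPM after it (log2 fold change 9.62 ± 0.92, FDR 7.01e-05, 8.95 without CPEB1-KO replicate 2 and 11.38 without CPEB1-KO replicate 3 and 8.62 without CPEB1-KO-LPS replicate 3). Il1r2, a decoy receptor of interleukin-1, was read at 0.72, 1.11 and 0.53 TPM without LPS and 79.02, 46 and 51.8 TPM after it (log2 fold change 6.21 ± 0.67, FDR 0.000137). Il1rn, the interleukin-1 receptor antagonist, was read at 0.87, 1.13 and 0.27 TPM without LPS and 16.9, 45.8 and 59.3 TPM after it (log2 fold change 5.83 ± 0.65, FDR 0.00017). No untreated library of these genes exceeded 1.13 TPM, and no LPS library stood below 16.9 TPM. Tnfaip3, the deubiquitinase A20, rose from 7.88, 3.61 and 3.28 to 77.4, 117 and 343 TPM (log2 fold change 5.31 ± 0.74, FDR 0.00084, 4.23 without CPEB1-KO-LPS replicate 3), and the A20 partners Tnip1 (log2 fold change 0.85 ± 0.23, FDR 0.0414, held in 0 of 6 leave-one-out fits, FDR up to 0.181 without CPEB1-KO replicate 2) and Tnip2 (log2 fold change 1.60 ± 0.28, FDR 0.00426) rose less. Irak3, the inactive kinase IRAK-M that blocks receptor signalling, was read at 1.21, 1.23 and 0.96 TPM without LPS and 10.4, 12.6 and 14.4 TPM after it (log2 fold change 3.51 ± 0.33, FDR 7.01e-05). Lilrb4, an inhibitory receptor, was read at 8.01, 5.41 and 1.52 TPM without LPS and 71.8, 80.2 and 94.5 TPM after it (log2 fold change 4.11 ± 0.47, FDR 0.000226). Without CPEB1-KO replicate 2 the count of the list was 9.

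**Figure D2:**
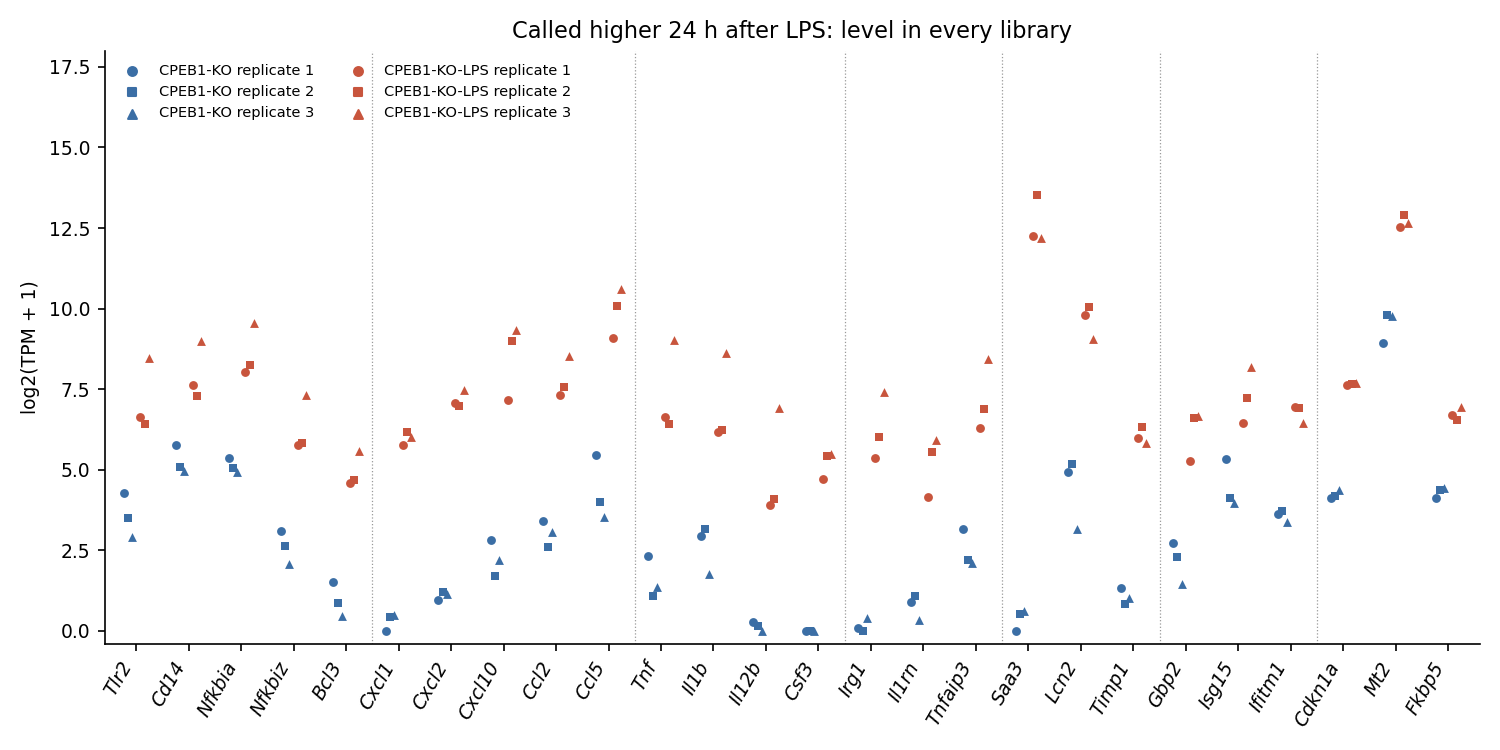
Level of 26 genes called higher in every library, as log2(TPM + 1) on the y axis, with blue symbols for CPEB1-KO, red symbols for CPEB1-KO-LPS and a symbol shape for each replicate number. Red and blue symbols of a gene do not overlap, and the red triangle of CPEB1-KO-LPS replicate 3 is highest for Tnf, Il1b, Il12b, Tlr2 and Nfkbia but not for Saa3, Lcn2 or Ifitm1.

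Genes of acute-phase proteins, which the liver makes in systemic inflammation and which brain cells can also make, rose in these preparations. Of 21 acute-phase genes tested 15 were called higher and none lower, with a median log2 fold change of 3.33. It was 3.17 with genes at 3 or fewer counts over a group set at a bound of 3 counts. Lcn2, which binds bacterial siderophores, was read at 29.6, 35.6 and 8.02 TPM without LPS and 890, 1069 and 538 TPM after it (log2 fold change 5.11 ± 0.54, FDR 0.000109). Cp, the ferroxidase ceruloplasmin, was read at 5.49, 4.51 and 4.52 TPM without LPS and 41.5, 53.4 and 39.5 TPM after it (log2 fold change 3.13 ± 0.30, FDR 7.01e-05). Steap4, a metalloreductase, was read at 0.16, 0.21 and 0.2 TPM without LPS and 5.23, 9.44 and 5.25 TPM after it (log2 fold change 5.10 ± 0.36, FDR 7.1e-06). All LPS libraries exceeded all untreated ones in the 3 genes. Saa1 had 1 count before and 192 after LPS, a ratio of 188 (95% counting interval 33.3 to 7463), and Saa2 2 and 73, a ratio of 35.7 (95% counting interval 9.54 to 301). Reads of Saa1 and Saa2, which are near copies, are divided between them by estimate, as are those of the Serpina3 family. The count of 15 stayed at 13 or more in each leave-one-out fit. Of 19 genes of iron handling 3 were called higher (1 without CPEB1-KO replicate 3): the zinc and iron importer Slc39a14 (log2 fold change 1.78 ± 0.22, FDR 0.00032), the transferrin receptor Tfrc (log2 fold change 1.02 ± 0.19, FDR 0.00692, held in 5 of 6 leave-one-out fits, FDR up to 0.0532 without CPEB1-KO replicate 3) and the haem oxygenase Hmox1 (log2 fold change 1.87 ± 0.45, FDR 0.0274, held in 3 of 6 leave-one-out fits, FDR up to 0.131 without CPEB1-KO replicate 2, 1.10 without CPEB1-KO-LPS replicate 3). The iron exporter Slc40a1 was read at 8.22, 8.68 and 7.98 TPM without LPS and 1.04, 0.72 and 5.05 TPM after it. It was called lower without CPEB1-KO-LPS replicate 3 (FDR 0.000974) and not with it (FDR 0.125).

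Genes of the interferon response rose with the inflammatory genes. Of 48 interferon-stimulated genes tested 24 were called higher and none lower (median log2 fold change 1.72). The TPM ranges were apart for 33, all higher, against 16.2% higher over all genes tested. Ifitm1, Ifitm2 and Ifitm3, whose proteins block the entry of viruses, were called in every leave-one-out fit. Ifitm1 was read at 11.5, 12.3 and 9.46 TPM without LPS and 122, 119 and 86.96 TPM after it (log2 fold change 3.37 ± 0.24, FDR 7.1e-06), Ifitm2 at 50.4, 46.1 and 38.1 TPM without LPS and 256, 263 and 270.5 TPM after it (log2 fold change 2.63 ± 0.25, FDR 7.01e-05) and Ifitm3 at 188, 92.8 and 72.1 TPM without LPS and 609, 705 and 985 TPM after it (log2 fold change 2.81 ± 0.39, FDR 0.00084). Isg15, a ubiquitin-like modifier, was read at 39.3, 16.6 and 14.5 TPM without LPS and 86.5, 148 and 292 TPM after it (log2 fold change 3.04 ± 0.53, FDR 0.004, 3.67 without CPEB1-KO replicate 1 and 2.25 without CPEB1-KO-LPS replicate 3). Mx2 rose from 2.97, 1.99 and 1.46 to 10.9, 10.3 and 13.4 TPM (log2 fold change 2.48 ± 0.39, FDR 0.00194). Xaf1 rose from 6.37, 3.89 and 4.76 to 33.8, 14.1 and 43.9 TPM (log2 fold change 2.65 ± 0.39, FDR 0.00117). In 42 of the 48 genes CPEB1-KO-LPS replicate 3 was the highest LPS library, and CPEB1-KO replicate 1 was highest among the untreated libraries in the mean of the list. 18 genes were called without CPEB1-KO-LPS replicate 3, 30 without CPEB1-KO replicate 1, and without CPEB1-KO replicate 2 or 3 only 13. Ifit1 shows the spread: it was read at 11.8, 2.26 and 3.09 TPM without LPS and 11.96, 18.1 and 33.9 TPM after it, was not called (FDR 0.0652), and was called without CPEB1-KO replicate 1 (FDR 0.00524).

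The guanylate-binding proteins and immunity-related GTPases, interferon-induced proteins that attack the vacuoles of intracellular microbes, rose as well, with 10 of 18 called higher and none lower (median log2 fold change 2.08). Gbp2 was read at 5.64, 3.86 and 1.77 TPM without LPS and 37.8, 97.5 and 101.2 TPM after it (log2 fold change 4.47 ± 0.59, FDR 0.000648). Iigp1 was read at 2.35, 0.67 and 1.21 TPM without LPS and 11.2, 32.1 and 21.7 TPM after it (log2 fold change 3.94 ± 0.48, FDR 0.000334, 4.56 without CPEB1-KO replicate 1). Igtp rose from 16.7, 8.54 and 10.2 to 43.7, 70.5 and 48.9 TPM (log2 fold change 2.23 ± 0.30, FDR 0.000732). Irgm1 rose from 16.9, 8.51 and 9.29 to 46.4, 78.99 and 93 TPM (log2 fold change 2.73 ± 0.38, FDR 0.000843). The groups did not overlap in these 4 genes, and CPEB1-KO-LPS replicate 1 was the lowest LPS library of each. Gbp genes are close copies of each other, so their reads are partly divided by estimate.

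A pair of promoters of these genes is shown for the ISRE, with matches to GAAANNGAA on either strand in capitals, and the same window, build and source as above. Gbp2 lies at chr3:142620413-142620662, plus strand and Isg15 at chr4:156200819-156201068, minus strand.
Gbp2: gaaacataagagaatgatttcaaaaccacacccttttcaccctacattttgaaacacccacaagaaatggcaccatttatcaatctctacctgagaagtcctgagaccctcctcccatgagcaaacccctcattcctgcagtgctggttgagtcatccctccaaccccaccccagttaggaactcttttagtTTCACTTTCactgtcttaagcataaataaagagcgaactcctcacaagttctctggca
Isg15: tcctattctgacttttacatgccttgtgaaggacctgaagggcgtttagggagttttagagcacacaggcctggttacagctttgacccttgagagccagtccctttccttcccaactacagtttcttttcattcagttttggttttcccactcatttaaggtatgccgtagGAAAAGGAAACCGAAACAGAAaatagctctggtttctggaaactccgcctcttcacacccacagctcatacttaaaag
Gbp2 has 1 match, which starts 58 bases upstream of the start, and Isg15 has 3 matches that overlap, from 78 to 66 bases upstream. The motif was found in 7.62% of all 12109 promoters, in 16.5% of those of genes called higher and in 9.56% of those of genes called lower. It was found in 19 of 37 promoters of interferon-stimulated genes (51.4%) and in 10 of 11 of the GTPase list (90.9%), and in 0 of 24 promoters of homeostatic microglial genes.

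Transcription factors of inflammation rose in 14 of 43 cases and fell in none, but the count was 5 without CPEB1-KO replicate 2 or 3 and 7 without CPEB1-KO-LPS replicate 3. Cebpd, a factor induced by interleukins in many tissues, was read at 12.7, 9.66 and 6.95 TPM without LPS and 57.4, 73 and 63.4 TPM after it (log2 fold change 2.77 ± 0.28, FDR 9.73e-05). Cebpb, its relative, was read at 44.5, 26.5 and 23.9 TPM without LPS and 142, 149 and 389.9 TPM after it (log2 fold change 2.96 ± 0.52, FDR 0.00428, 2.12 without CPEB1-KO-LPS replicate 3). Stat3, which carries the signals of IL-6 and its family, was read at 24.5, 21.6 and 18.5 TPM without LPS and 63.5, 72.2 and 90.2 TPM after it (log2 fold change 1.87 ± 0.29, FDR 0.00183). All LPS libraries exceeded the untreated ones in these genes. The small Maf proteins Maff (log2 fold change 4.31 ± 0.54, FDR 0.000376) and Mafk (log2 fold change 1.87 ± 0.30, FDR 0.00251) rose too. Stat2, a factor of interferon signalling, was called (log2 fold change 1.38 ± 0.35, FDR 0.0349, held in 1 of 6 leave-one-out fits, FDR up to 0.157 without CPEB1-KO replicate 3).

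In the lists of antigen presentation the shares called were near those over all genes tested (4.10% higher, 2.12% lower). Of 19 genes of MHC class I and its peptide supply 1 was called higher, although the TPM ranges were apart for 10, all higher (16.2% over all genes tested), and the median log2 fold change was 1.05. The peptide transporter Tap1 was read at 15.98, 7.12 and 5.83 TPM without LPS and 24.9, 33.1 and 62.4 TPM after it (log2 fold change 2.15 ± 0.52, FDR 0.028, held in 3 of 6 leave-one-out fits, FDR up to 0.132 without CPEB1-KO replicate 2, 2.77 without CPEB1-KO replicate 1 and 1.51 without CPEB1-KO-LPS replicate 3). The groups overlapped in the class I genes themselves: H2-K1 was read at 482, 169.6 and 121 TPM without LPS and 464, 451 and 1023 TPM after it (FDR 0.164) and H2-D1 at 839, 373 and 289.6 TPM without LPS and 625, 576 and 1310 TPM after it (FDR 0.374). CPEB1-KO replicate 1 was the highest untreated library of both, and CPEB1-KO-LPS replicate 3 the highest LPS library of all 19 genes. Without CPEB1-KO replicate 1, 6 genes of the list were called, and without CPEB1-KO-LPS replicate 3 none. Of 16 class II and costimulation genes, 1 was called higher and none lower, with a median log2 fold change of -0.371. The costimulatory receptor Cd40 rose from 1.86, 0.09 and 0.22 to 4.05, 7.65 and 17.9 TPM (log2 fold change 3.94 ± 0.96, FDR 0.0287, held in 3 of 6 leave-one-out fits, FDR up to 0.128 without CPEB1-KO replicate 3, 6.17 without CPEB1-KO replicate 1 and 3.34 without CPEB1-KO replicate 2 and 3.00 without CPEB1-KO-LPS replicate 3). H2-Aa, a chain of the class II molecule, was read at 134, 36.9 and 25.99 TPM without LPS and 13.6, 17.5 and 62.97 TPM after it and was not called (FDR 0.476). B cells also carry class II genes, and their 5 tested markers summed to 55.9, 11.5 and 8.1 TPM without LPS and 7.8, 10.3 and 9.1 TPM after it. The part of the B cell markers in the class II values was not tested.

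Complement, scavenger and Fc receptor genes rose for some members only. Of 23 complement genes 7 were called higher and 1, Cd59a, lower. Cfb, factor B of the alternative pathway, was read at 0.25, 0.38 and 0.17 TPM without LPS and 9.66, 13.1 and 26.99 TPM after it (log2 fold change 5.99 ± 0.65, FDR 0.000137, 5.27 without CPEB1-KO-LPS replicate 3). Serping1, the inhibitor of C1, rose from 12.2, 7.82 and 9.22 to 37.9, 43.1 and 26.9 TPM (log2 fold change 1.90 ± 0.23, FDR 0.000282). C3ar1, the receptor of C3a, rose from 9.13, 5.46 and 5.31 to 25.9, 23.8 and 75.2 TPM (log2 fold change 2.77 ± 0.48, FDR 0.00423, 1.83 without CPEB1-KO-LPS replicate 3). The abundant C1q chains, which microglia make at rest, were not called: C1qa was read at 2246, 1412 and 1268 TPM without LPS and 1907, 1212 and 3674 TPM after it (log2 fold change 0.58 ± 0.56, FDR 0.617). Of 23 scavenger receptors and C-type lectins 7 were called higher and none lower. Msr1, the class A scavenger receptor, was read at 0.97, 1.13 and 0.71 TPM without LPS and 103, 134 and 168 TPM after it (log2 fold change 7.16 ± 0.68, FDR 7.01e-05). Clec4e, the receptor Mincle for mycobacterial glycolipids, was read at 0.21, 0.58 and 0.32 TPM without LPS and 7.7, 7 and 8.47 TPM after it (log2 fold change 4.38 ± 0.47, FDR 0.00013). The LPS libraries of both stood far above the untreated ones without overlap. Of 14 Fc and CD300 receptors 2 were called higher and 1 lower. Cd300lf, an inhibitory receptor of phospholipids, was read at 2.83, 1.77 and 0.72 TPM without LPS and 47.3, 61.5 and 121 TPM after it (log2 fold change 5.55 ± 0.58, FDR 0.000109, 4.88 without CPEB1-KO-LPS replicate 3). The activating IgG receptor Fcgr4 was read at 15.4, 9.33 and 4.22 TPM without LPS and 98.3, 103 and 151 TPM after it (log2 fold change 3.68 ± 0.53, FDR 0.00112). Cd300lb had 37 counts without LPS and 3 after it, a fall by a ratio of 12.6 (95% counting interval 3.99 to 63.9), and its call held in 1 of 6 leave-one-out fits, FDR up to 0.0891 without CPEB1-KO replicate 2.

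Extracellular proteolysis and coagulation genes rose in 13 of 28 cases (8 without CPEB1-KO replicate 3), and 1 gene was called lower. Timp1, an inhibitor of matrix metalloproteinases, was read at 1.51, 0.77 and 1.05 TPM without LPS and 63.1, 79.4 and 55.6 TPM after it (log2 fold change 5.99 ± 0.53, FDR 5.2e-05). Mmp3, a matrix metalloproteinase, had 1 count before and 922 after LPS, a ratio of 903 (95% counting interval 162 to 35692). Plaur, the urokinase receptor, rose from 5.26, 3.17 and 1.01 to 26.6, 31.6 and 81.8 TPM (log2 fold change 4.02 ± 0.67, FDR 0.00302, 4.61 without CPEB1-KO replicate 1 and 3.14 without CPEB1-KO-LPS replicate 3). In these genes no LPS library overlapped the untreated ones. Of 23 integrins and adhesion molecules 3 were called higher and none lower. They were P-selectin, Selp (3 and 110 counts, a ratio of 35.9 (95% counting interval 11.97 to 177)), Icam1 (log2 fold change 3.21 ± 0.65, FDR 0.0103, held in 4 of 6 leave-one-out fits, FDR up to 0.0619 without CPEB1-KO replicate 2, 2.04 without CPEB1-KO-LPS replicate 3) and Itga5, a chain of the fibronectin receptor (log2 fold change 2.69 ± 0.40, FDR 0.00126). Of 27 genes of inflammasomes and lytic death 7 were called higher and none lower. The inflammasome sensor Nlrp3 was read at 4.28, 3.3 and 1.99 TPM without LPS and 15.4, 18.7 and 60.1 TPM after it (log2 fold change 3.43 ± 0.66, FDR 0.00777, 2.35 without CPEB1-KO-LPS replicate 3). The death receptor Fas was read at 1.54, 2.35 and 0.82 TPM without LPS and 10.5, 13.4 and 14.3 TPM after it (log2 fold change 2.88 ± 0.42, FDR 0.00126). The anti-apoptotic Bcl2a1 copies rose as well (Bcl2a1a, log2 fold change 3.38 ± 0.52, FDR 0.00158), with reads divided between near-identical copies by estimate.

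Enzymes of the respiratory burst, nitric oxide and arginine rose in part. Of 34 oxidant and antimicrobial genes 9 were called higher and none lower, and only 4 without CPEB1-KO replicate 2. Arg1, arginase, was read at 0.26, 0.2 and 0.59 TPM without LPS and 27.5, 6.87 and 13.5 TPM after it (log2 fold change 5.50 ± 0.74, FDR 0.000715). Nos2, the inducible nitric oxide synthase that competes for arginine, had 3 and 49 counts, a ratio of 15.99 (95% counting interval 5.16 to 80.2), and stayed at or below 0.84 TPM. Cybb, the catalytic chain of the phagocyte oxidase, was read at 9.57, 7.75 and 2.21 TPM without LPS and 33.4, 53.1 and 49.2 TPM after it (log2 fold change 2.84 ± 0.60, FDR 0.0123, held in 5 of 6 leave-one-out fits, FDR up to 0.057 without CPEB1-KO replicate 2). Its partner Cyba was not called (log2 fold change 1.05 ± 0.45, FDR 0.208). Of 23 prostaglandin and leukotriene genes 2 were called higher and 2 lower, and 5 lower without CPEB1-KO-LPS replicate 3. Hpgd, which degrades prostaglandins, was read at 82.2, 73.8 and 40.6 TPM without LPS and 8.8, 11.1 and 8.92 TPM after it (log2 fold change -2.73 ± 0.37, FDR 0.000797). Ptges, which makes prostaglandin E, rose from 1.75, 1.94 and 1.66 to 7.52, 12.4 and 3.78 TPM (log2 fold change 2.14 ± 0.42, FDR 0.0091, held in 5 of 6 leave-one-out fits, FDR up to 0.0515 without CPEB1-KO replicate 3). Ptgs2, the inducible cyclooxygenase, rose from 1.85, 1.41 and 2.07 to 3.18, 6.01 and 6.59 TPM (log2 fold change 1.64 ± 0.42, FDR 0.0364, held in 1 of 6 leave-one-out fits, FDR up to 0.163 without CPEB1-KO replicate 2). Cysltr1, a leukotriene receptor, fell from 5.3, 4 and 3.12 to 1.06, 0.48 and 1.67 TPM (log2 fold change -1.90 ± 0.47, FDR 0.0316, held in 1 of 6 leave-one-out fits, FDR up to 0.104 without CPEB1-KO-LPS replicate 1, -2.51 without CPEB1-KO-LPS replicate 3).

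In the lists of carbon metabolism and of sterol and fatty acid metabolism the counts were near the shares over all genes tested (4.10% higher, 2.12% lower), and in that of purinergic genes they were above them. Of 29 genes of glycolysis and carbon metabolism 1 was called higher and 1 lower: Pfkfb3, which makes an activator of glycolysis, was read at 17.5, 19.3 and 16.9 TPM without LPS and 50.5, 64.2 and 126 TPM after it (log2 fold change 2.28 ± 0.46, FDR 0.0102, held in 4 of 6 leave-one-out fits, FDR up to 0.0561 without CPEB1-KO replicate 3, 1.62 without CPEB1-KO-LPS replicate 3). Pdk1 was read at 16.9, 17.8 and 16.2 TPM without LPS and 12.2, 10.5 and 7.14 TPM after it (log2 fold change -0.75 ± 0.18, FDR 0.0291, held in 1 of 6 leave-one-out fits, FDR up to 0.116 without CPEB1-KO replicate 2). Of 33 genes of sterol and fatty acid metabolism 2 were called higher, both in all leave-one-out fits. Ch25h, which makes 25-hydroxycholesterol, was read at 4.75, 1.1 and 0.66 TPM without LPS and 36.9, 81.6 and 214 TPM after it (log2 fold change 5.85 ± 0.81, FDR 0.00084, 7.12 without CPEB1-KO replicate 1 and 4.73 without CPEB1-KO-LPS replicate 3). Plin2, the coat protein of lipid droplets, was read at 10.6, 11.7 and 11.8 TPM without LPS and 40.7, 51.5 and 52.4 TPM after it (log2 fold change 2.14 ± 0.29, FDR 0.000797). The cholesterol synthesis gene Hmgcs1 was not called (log2 fold change -0.52 ± 0.31, FDR 0.389). Of the purinergic genes, 3 of 20 were called higher and 1 lower. Adenosine deaminase, Ada, rose from 0.98, 1.66 and 1.1 to 11.6, 6.87 and 7.85 TPM (log2 fold change 2.83 ± 0.48, FDR 0.00312). The nucleotide receptor P2ry2 rose from 0.24, 0.17 and 0.58 to 1.88, 3.15 and 11.1 TPM (log2 fold change 4.14 ± 0.80, FDR 0.00785, held in 5 of 6 leave-one-out fits, FDR up to 0.0535 without CPEB1-KO replicate 2, 4.82 without CPEB1-KO replicate 3 and 2.85 without CPEB1-KO-LPS replicate 3), while the fall was that of P2ry12. Only 1 was called higher without CPEB1-KO replicate 2, and 3 were called lower without CPEB1-KO-LPS replicate 3.

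Targets of glucocorticoids and the metallothioneins rose in most cases: 17 of 25 were called higher and none lower (median log2 fold change 1.90), 16 or 17 in every leave-one-out fit, and the TPM ranges were apart for 22. Of the 17, 6 are also in other lists, such as Lcn2, Nfkbia and Dusp1. Fkbp5, a co-chaperone of the glucocorticoid receptor, was read at 16.6, 19.6 and 20.8 TPM without LPS and 103, 92.1 and 122 TPM after it (log2 fold change 2.54 ± 0.37, FDR 0.00117). Sgk1, a kinase induced by steroids, was read at 88.1, 98.1 and 94.6 TPM without LPS and 387, 307 and 334 TPM after it (log2 fold change 1.90 ± 0.21, FDR 0.000174). Pnpla2, the triglyceride lipase ATGL, was read at 23.9, 21.9 and 20.5 TPM without LPS and 114, 85.9 and 84.6 TPM after it (log2 fold change 2.13 ± 0.22, FDR 9.73e-05). In these genes all LPS libraries exceeded all untreated ones, and CPEB1-KO-LPS replicate 3 was the highest, the middle and the lowest of the LPS libraries in turn. The metallothioneins, which bind zinc and copper, were higher in every LPS library than in every untreated one: Mt1 was read at 1201, 1913 and 1859 TPM without LPS and 8514, 10295 and 6737 TPM after it (log2 fold change 2.43 ± 0.39, FDR 0.00249). Mt2 was read at 492, 893 and 879 TPM without LPS and 5883, 7638 and 6461 TPM after it (log2 fold change 3.24 ± 0.45, FDR 0.000839). Tsc22d3, a glucocorticoid target that encodes GILZ, was not called (log2 fold change 0.80 ± 0.29, FDR 0.126). The glucocorticoid response element, searched as ACANNNTGT, was found in 4 of 22 promoters of the list (18.2%) and in 4.72% of all promoters. It was found in 7.13% of promoters of genes called higher, 3.98% of those called lower and 5 of 18 acute-phase promoters (27.8%). The windows of Mt2 and Fkbp5 held no match. Cdkn1a, the cell cycle inhibitor p21, had the smallest standard error of the named genes with a log2 fold change above 3, at 16.4, 17.3 and 19.6 TPM without LPS and 199, 200.4 and 208 TPM after it (log2 fold change 3.56 ± 0.22, FDR 2.36e-06). It was the 1 gene called among 29 of the cell cycle list, which is near the share over all genes tested (4.10% higher). The proliferation markers Mki67 (log2 fold change 0.62 ± 0.64, FDR 0.643) and Top2a (log2 fold change -0.37 ± 0.50, FDR 0.739) were not called.

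Genes of the resting signature of microglia fell. Of 36 homeostatic microglial genes 9 were called lower and none higher, and the TPM ranges were apart for 25, all lower (median log2 fold change -1.22). Gpr34, a receptor of lysophosphatidylserine, was read at 163, 121 and 114 TPM without LPS and 3.57, 1.45 and 8.81 TPM after it (log2 fold change -4.75 ± 0.68, FDR 0.00098, -5.81 without CPEB1-KO-LPS replicate 3). P2ry12, the ADP receptor that guides microglial processes to injury, was read at 307, 279.9 and 238 TPM without LPS and 18.1, 9.79 and 71.7 TPM after it (log2 fold change -2.89 ± 0.72, FDR 0.0323, held in 1 of 6 leave-one-out fits, FDR up to 0.113 without CPEB1-KO-LPS replicate 1, -4.38 without CPEB1-KO-LPS replicate 3). Olfml3, a secreted protein of microglia, was read at 189, 111 and 104 TPM without LPS and 10.99, 5.82 and 21.9 TPM after it (log2 fold change -3.28 ± 0.53, FDR 0.00251, -4.09 without CPEB1-KO-LPS replicate 3). Each LPS library lay below each untreated one, and the highest LPS library was replicate 3 in all 3. Without that library the FDR of P2ry12 was 0.00133. Crybb1 fell from 116, 88.4 and 103 to 4, 3.54 and 9.94 TPM (log2 fold change -4.05 ± 0.47, FDR 0.000224, -4.82 without CPEB1-KO-LPS replicate 3), the fructose transporter Slc2a5 from 3.59, 2.1 and 3.55 to 0.55, 0.33 and 0.66 TPM (log2 fold change -2.55 ± 0.40, FDR 0.00194), and the adhesion receptor Gpr56 from 59.8, 53.9 and 52.3 to 22.1, 19.3 and 27.1 TPM (log2 fold change -1.22 ± 0.24, FDR 0.00975, held in 4 of 6 leave-one-out fits, FDR up to 0.055 without CPEB1-KO-LPS replicate 2). In bulk samples, fewer cells of a type and less RNA of a gene per cell cannot be told apart.

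How many homeostatic genes were called depended on CPEB1-KO-LPS replicate 3. It was the highest LPS library in 33 of the 36 genes, and their summed level was 21257 to 27993 TPM without LPS and 9890, 6382 and 22449 TPM after it. Without it 21 genes were called lower, without it and CPEB1-KO replicate 1 19, and without CPEB1-KO-LPS replicate 1 or 2 only 5. Tmem119 was read at 319, 188 and 164 TPM without LPS and 66.1, 26.9 and 124 TPM after it, with a log2 fold change of -1.52 ± 0.57 (FDR 0.144) and of -2.36 without that library (FDR 0.0312). For P2ry13 the FDR was 0.109 with it and 0.0157 without, and for Siglech 0.305 and 0.0076. The general microglial markers moved with it: 1 of 14 was called lower with all libraries and 5 without CPEB1-KO-LPS replicate 3, and their summed level in that library (8148 TPM) was close to that of the highest untreated library (8149 TPM). Csf1r was read at 602, 482 and 394 TPM without LPS and 269.8, 167 and 656 TPM after it (log2 fold change -0.31 ± 0.61, FDR 0.823). Aif1 was read at 219.7, 177 and 139 TPM without LPS and 83.6, 69.02 and 133 TPM after it (log2 fold change -0.80 ± 0.47, FDR 0.375). The part of the microglial share of RNA in the fall of single genes was not tested.

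For transcription factors of microglial identity the counts were near the shares over all genes tested (4.10% higher, 2.12% lower). Of 21, 1 was called higher, Bcl6 (log2 fold change 0.93 ± 0.20, FDR 0.014, held in 3 of 6 leave-one-out fits, FDR up to 0.0698 without CPEB1-KO replicate 1), and 1 lower, Etv5 (log2 fold change -0.64 ± 0.17, FDR 0.0458, held in 0 of 6 leave-one-out fits, FDR up to 0.181 without CPEB1-KO replicate 2), or 3 lower without CPEB1-KO-LPS replicate 3. Sall1, a factor of microglial identity, was read at 37.4, 25.2 and 24.9 TPM without LPS and 10.6, 10.9 and 17.4 TPM after it (log2 fold change -1.10 ± 0.32, FDR 0.0631) and was called without CPEB1-KO-LPS replicate 3 (FDR 0.0141). Spi1, which encodes PU.1, was read at 83.2, 54.9 and 38.6 TPM without LPS and 119.9, 105 and 380.2 TPM after it and was not called (log2 fold change 1.92 ± 0.57, FDR 0.0672). Of 33 genes of the TGF-β pathway, on which the resting state of microglia depends, 3 were called higher and none lower. They were Lrrc32, which holds latent TGF-β at the cell surface (log2 fold change 2.32 ± 0.40, FDR 0.00364), Id2 (log2 fold change 1.64 ± 0.30, FDR 0.0056) and Tgif1 (log2 fold change 2.43 ± 0.53, FDR 0.0157, held in 4 of 6 leave-one-out fits, FDR up to 0.0893 without CPEB1-KO replicate 2, 1.51 without CPEB1-KO-LPS replicate 3). Of 26 genes of disease-associated microglia 1 was called, Csf1, near the share over all genes tested, and the median log2 fold change was -0.145. Apoe was read at 4578, 3786 and 3675 TPM without LPS and 2458, 1930 and 3920 TPM after it (log2 fold change -0.44 ± 0.36, FDR 0.54). Spp1 was read at 73.02, 65.8 and 54.9 TPM without LPS and 164, 141 and 104 TPM after it (log2 fold change 1.10 ± 0.33, FDR 0.0652).

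Both copies of the inducible Hsp70 gene fell. Of 26 chaperone genes 4 were called lower and 1 higher. Hspa1b was read at 291, 127 and 94.05 TPM without LPS and 4.87, 6.38 and 3.15 TPM after it (log2 fold change -5.15 ± 0.52, FDR 9.02e-05, -4.47 without CPEB1-KO replicate 1). Hspa1a, a near-identical copy with which it shares reads, was read at 199, 95.3 and 67.2 TPM without LPS and 12.3, 12.97 and 9.42 TPM after it (log2 fold change -3.38 ± 0.53, FDR 0.00209, -2.75 without CPEB1-KO replicate 1). Cryab, the small heat shock protein αB-crystallin, was read at 273, 278 and 305 TPM without LPS and 111, 105 and 97.2 TPM after it (log2 fold change -1.39 ± 0.26, FDR 0.007). The groups did not overlap, and CPEB1-KO replicate 1 was the highest library for both Hspa1 copies. Chordc1 was the fourth (log2 fold change -0.80 ± 0.22, FDR 0.0487, held in 0 of 6 leave-one-out fits, FDR up to 0.165 without CPEB1-KO replicate 2). Hspb1, another small heat shock protein, rose from 41.02, 33.8 and 28.5 to 169, 136 and 128 TPM (log2 fold change 2.11 ± 0.22, FDR 9.69e-05). Among 26 genes of the endoplasmic reticulum and integrated stress 3 were called higher, Ddit4 (log2 fold change 1.52 ± 0.23, FDR 0.00134), Slc3a2 (log2 fold change 1.07 ± 0.24, FDR 0.0196, held in 1 of 6 leave-one-out fits, FDR up to 0.108 without CPEB1-KO replicate 2) and Atf4 (log2 fold change 0.73 ± 0.20, FDR 0.0452, held in 0 of 6 leave-one-out fits, FDR up to 0.188 without CPEB1-KO replicate 2), and 1 without CPEB1-KO replicate 2 or 3 or CPEB1-KO-LPS replicate 2 or 3. The 3 called of 20 clock genes were Nfil3 (FDR 0.0214, held in 1 of 6 leave-one-out fits, FDR up to 0.0845 without CPEB1-KO replicate 1), Bhlhe40 (FDR 0.0473, held in 0 of 6 leave-one-out fits, FDR up to 0.167 without CPEB1-KO replicate 3) and Ciart (FDR 0.0493, held in 0 of 6 leave-one-out fits, FDR up to 0.212 without CPEB1-KO replicate 3).

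Immediate-early genes were mixed at 24 h, with 7 of 29 called higher and 1 lower. Ier3 was read at 22.6, 21 and 18.7 TPM without LPS and 133, 113 and 276 TPM after it (log2 fold change 3.19 ± 0.42, FDR 0.000681, 2.50 without CPEB1-KO-LPS replicate 3). Gadd45b was read at 14.7, 18.01 and 19.2 TPM without LPS and 62.5, 79.6 and 127 TPM after it (log2 fold change 2.48 ± 0.33, FDR 0.000715). Atf3 was read at 14.2, 4.39 and 3.86 TPM without LPS and 57.1, 37.8 and 118 TPM after it (log2 fold change 3.34 ± 0.75, FDR 0.0178, held in 3 of 6 leave-one-out fits, FDR up to 0.0947 without CPEB1-KO replicate 2, 4.25 without CPEB1-KO replicate 1 and 2.58 without CPEB1-KO-LPS replicate 3). The LPS libraries exceeded the untreated ones in all 3. Fos, a subunit of the AP-1 factor, was read at 215, 84.1 and 85.8 TPM without LPS and 182, 127 and 676 TPM after it and was not called (log2 fold change 1.498 ± 0.81, FDR 0.323). Without CPEB1-KO replicate 2 only 2 of the list were called higher, and 4 without CPEB1-KO-LPS replicate 3.

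**Figure D3:**
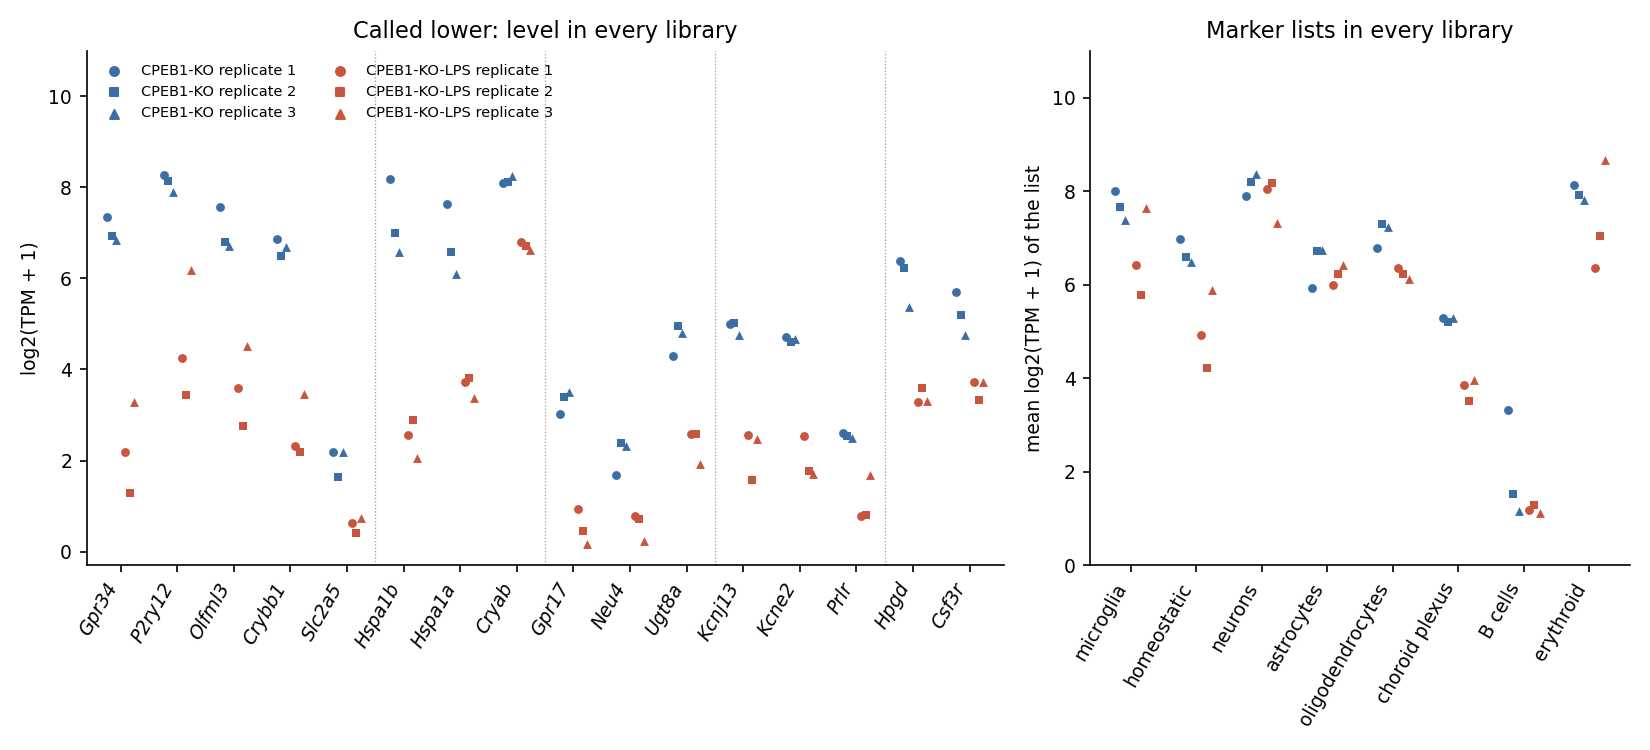
Left, level of 16 genes called lower in every library, as log2(TPM + 1), and right, the mean log2(TPM + 1) of 8 lists in every library, with blue for CPEB1-KO and red for CPEB1-KO-LPS and a symbol shape per replicate number. In CPEB1-KO-LPS replicate 3 the microglial, homeostatic and erythroid lists stand above the other LPS libraries (7.64, 5.89 and 8.67), and the B cell list stands high in CPEB1-KO replicate 1 (3.31).

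Genes of other brain cells moved after LPS. A broad fall was seen for the choroid plexus, the epithelium that secretes cerebrospinal fluid: 10 of 13 markers of choroid plexus and ependyma were called lower and none higher (median log2 fold change -1.5), and 5 without CPEB1-KO-LPS replicate 1 or 2. Kcnj13, a potassium channel of that epithelium, was read at 30.7, 31.6 and 26.2 TPM without LPS and 4.88, 1.98 and 4.53 TPM after it (log2 fold change -2.90 ± 0.40, FDR 0.000839). Prlr, the prolactin receptor, was read at 5.12, 4.83 and 4.61 TPM without LPS and 0.73, 0.74 and 2.22 TPM after it (log2 fold change -2.69 ± 0.32, FDR 0.000247). Kl, klotho, was read at 42.01, 44.95 and 42.2 TPM without LPS and 8.57, 7.61 and 13.4 TPM after it (log2 fold change -2.05 ± 0.42, FDR 0.0107, held in 4 of 6 leave-one-out fits, FDR up to 0.0582 without CPEB1-KO-LPS replicate 2). All LPS libraries lay below all untreated ones. Ttr, transthyretin, the most abundant marker of the list, was read at 8981, 7005 and 8152 TPM without LPS and 3491, 2482 and 3663 TPM after it and was not called (log2 fold change -1.26 ± 0.36, FDR 0.0535). Kcne2, a potassium channel subunit outside the list, fell from 25.1, 23.4 and 24.6 to 4.79, 2.41 and 2.27 TPM (log2 fold change -2.92 ± 0.28, FDR 7.01e-05).

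Markers of oligodendrocyte precursors fell in 5 of 12 cases and those of oligodendrocytes in 3 of 12, with none higher. The first count was 3 without CPEB1-KO replicate 2 or 3, and the second was 1 without either of these or without CPEB1-KO-LPS replicate 2 or 3. Gpr17, a receptor of committed precursors, was read at 7.1, 9.5 and 10.4 TPM without LPS and 0.92, 0.36 and 0.13 TPM after it (log2 fold change -4.24 ± 0.42, FDR 8.24e-05, -5.09 without CPEB1-KO-LPS replicate 1). Cspg4, the proteoglycan NG2, was read at 3.53, 3.98 and 3.78 TPM without LPS and 1.14, 0.84 and 1.25 TPM after it (log2 fold change -1.76 ± 0.33, FDR 0.00689). Ugt8a, an enzyme of myelin galactolipid synthesis, was read at 18.7, 30.1 and 26.7 TPM without LPS and 5.02, 5.01 and 2.8 TPM after it (log2 fold change -2.53 ± 0.25, FDR 7.01e-05). In each of these genes the untreated libraries were all higher than the LPS libraries. Sox10, the lineage factor of both, fell from 33.2, 42.6 and 39.7 to 19.7, 20.3 and 11.8 TPM (log2 fold change -1.14 ± 0.24, FDR 0.0122, held in 4 of 6 leave-one-out fits, FDR up to 0.0634 without CPEB1-KO replicate 2). Pdgfra, which defines the precursors, was not called (log2 fold change 0.12 ± 0.39, FDR 0.901), nor was Mbp, the main myelin protein gene, at 1692, 3529 and 3210 TPM without LPS and 1086, 1157 and 3355 TPM after it (log2 fold change -0.44 ± 0.61, FDR 0.74). The other oligodendrocyte markers called lower were Mog (log2 fold change -1.27 ± 0.30, FDR 0.0246, held in 2 of 6 leave-one-out fits, FDR up to 0.0956 without CPEB1-KO replicate 3) and Aspa (log2 fold change -1.21 ± 0.32, FDR 0.0425, held in 1 of 6 leave-one-out fits, FDR up to 0.145 without CPEB1-KO replicate 2).

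Reactive astrocyte genes rose, with 21 of 27 called higher and none lower (median log2 fold change 2.54), and 15 without CPEB1-KO replicate 3. Of the 21, 14 are also members of other lists, such as Lcn2, Timp1, Osmr and Cp, which several cell types express. Gfap, the intermediate filament of astrocytes, was read at 89.5, 121 and 121 TPM without LPS and 330, 502 and 469 TPM after it (log2 fold change 2.04 ± 0.38, FDR 0.00609), with no overlap between the groups. Of 12 general astrocyte markers Gfap was the 1 called. The glutamate transporters Slc1a3 (log2 fold change -0.60 ± 0.35, FDR 0.373) and Slc1a2 (log2 fold change -0.73 ± 0.53, FDR 0.479) and the water channel Aqp4 (log2 fold change -0.63 ± 0.45, FDR 0.466) were not. The summed level of the 12 was 1332 to 2414 TPM without LPS and 1540 to 1994 TPM after it. Which cells made the acute-phase, protease and reactive transcripts was not tested.

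Of 22 endothelial and mural markers 3 were called lower and 1 higher. Slco1c1, a thyroid hormone transporter of the blood-brain barrier, was read at 15.5, 20.4 and 21.7 TPM without LPS and 3.61, 2.93 and 4.7 TPM after it (log2 fold change -2.29 ± 0.32, FDR 0.000869). Slco1a4, an anion transporter there, fell from 3.86, 7.46 and 6.62 to 1.06, 1.03 and 0.57 TPM (log2 fold change -2.72 ± 0.32, FDR 0.000266). Tek, the angiopoietin receptor, stayed below 1 TPM in every library (log2 fold change -2.33 ± 0.57, FDR 0.0278, held in 2 of 6 leave-one-out fits, FDR up to 0.117 without CPEB1-KO replicate 2). The riser, Kcnj8, was held in none of the leave-one-out fits (FDR 0.0449 with all libraries). The endothelial markers Cldn5 (log2 fold change 0.09 ± 0.33, FDR 0.915) and Pecam1 (log2 fold change 0.95 ± 0.49, FDR 0.298) were not called. No neuronal marker of 14 was called by edgeR or DESeq2, and 0 had an unadjusted p below 0.05. Snap25 was read at 1405, 2091 and 2208 TPM without LPS and 1579, 1809 and 852 TPM after it, and CPEB1-KO-LPS replicate 3 was the lowest LPS library of all 14.

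Blood cell markers showed no uniform rise. Of 12 monocyte markers 3 were called higher, and Ccr2 was called lower. Ms4a6c was read at 15.5, 10.7 and 5.49 TPM without LPS and 214, 227 and 210.4 TPM after it (log2 fold change 4.22 ± 0.56, FDR 0.000645). Ms4a4c rose from 5.15, 2.05 and 0.98 to 14.6, 11.8 and 23.9 TPM (log2 fold change 2.71 ± 0.55, FDR 0.0105, held in 5 of 6 leave-one-out fits, FDR up to 0.067 without CPEB1-KO replicate 2, 3.57 without CPEB1-KO replicate 1), and F10, coagulation factor X, was the third (log2 fold change 4.34 ± 1.03, FDR 0.0243, held in 3 of 6 leave-one-out fits, FDR up to 0.101 without CPEB1-KO replicate 3, 8.56 without CPEB1-KO replicate 2 and 3.37 without CPEB1-KO-LPS replicate 3). Ly6c2, a defining marker of inflammatory monocytes, was read at 23.01, 17.9 and 4.8 TPM without LPS and 21.9, 15.6 and 53.3 TPM after it (log2 fold change 1.13 ± 0.62, FDR 0.336). Of 13 neutrophil markers none was called higher and 1, Csf3r, was called lower. S100a8 was read at 1506, 1736 and 294 TPM without LPS and 1985, 2744 and 685 TPM after it and S100a9 at 700.2, 875 and 171 TPM without LPS and 934, 1011 and 420.2 TPM after it, with CPEB1-KO replicate 3 and CPEB1-KO-LPS replicate 3 the lowest of their groups. Of 12 markers of T and NK cells 3 were called higher, all of them in every leave-one-out fit: Ccl5, the granzyme Gzmb at 1.49, 0.73 and 1.37 TPM without LPS and 13.7, 14.1 and 12.8 TPM after it (log2 fold change 3.55 ± 0.38, FDR 0.000127) and the granzyme Gzma at 1.79, 4.1 and 4.66 TPM without LPS and 30.9, 30.2 and 34.3 TPM after it (log2 fold change 3.23 ± 0.38, FDR 0.000247). The CD3 chains of the T cell receptor complex, Cd3e (log2 fold change -0.41 ± 0.79, FDR 0.822) and Cd3g (log2 fold change -1.84 ± 0.72, FDR 0.16), were not called. Of 11 markers of border macrophages 1 was called, Siglec1, an interferon-induced sialic acid receptor (log2 fold change 3.54 ± 0.59, FDR 0.003), and Mrc1 (log2 fold change -0.57 ± 0.44, FDR 0.508) and Lyve1 (log2 fold change 0.44 ± 0.78, FDR 0.802) were not.

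The values of erythroid genes turned on CPEB1-KO-LPS replicate 3. Hba-a2 was read at 19657, 14145 and 13998 TPM without LPS and 3612, 6031 and 30898 TPM after it (log2 fold change 0.02 ± 0.67, FDR 0.991), and its log2 fold change was -1.79 without that library (FDR 0.0219). Alas2, the haem synthesis enzyme of red cell precursors, was read at 50.1, 41.8 and 40.4 TPM without LPS and 8.51, 15.6 and 127 TPM after it (log2 fold change 0.40 ± 0.75, FDR 0.817), with -1.93 without it (FDR 0.0092). With all libraries none of 7 erythroid markers was called by edgeR or DESeq2 and 0 had an unadjusted p below 0.05, and without that library 4 were called lower.

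**Figure D4:**
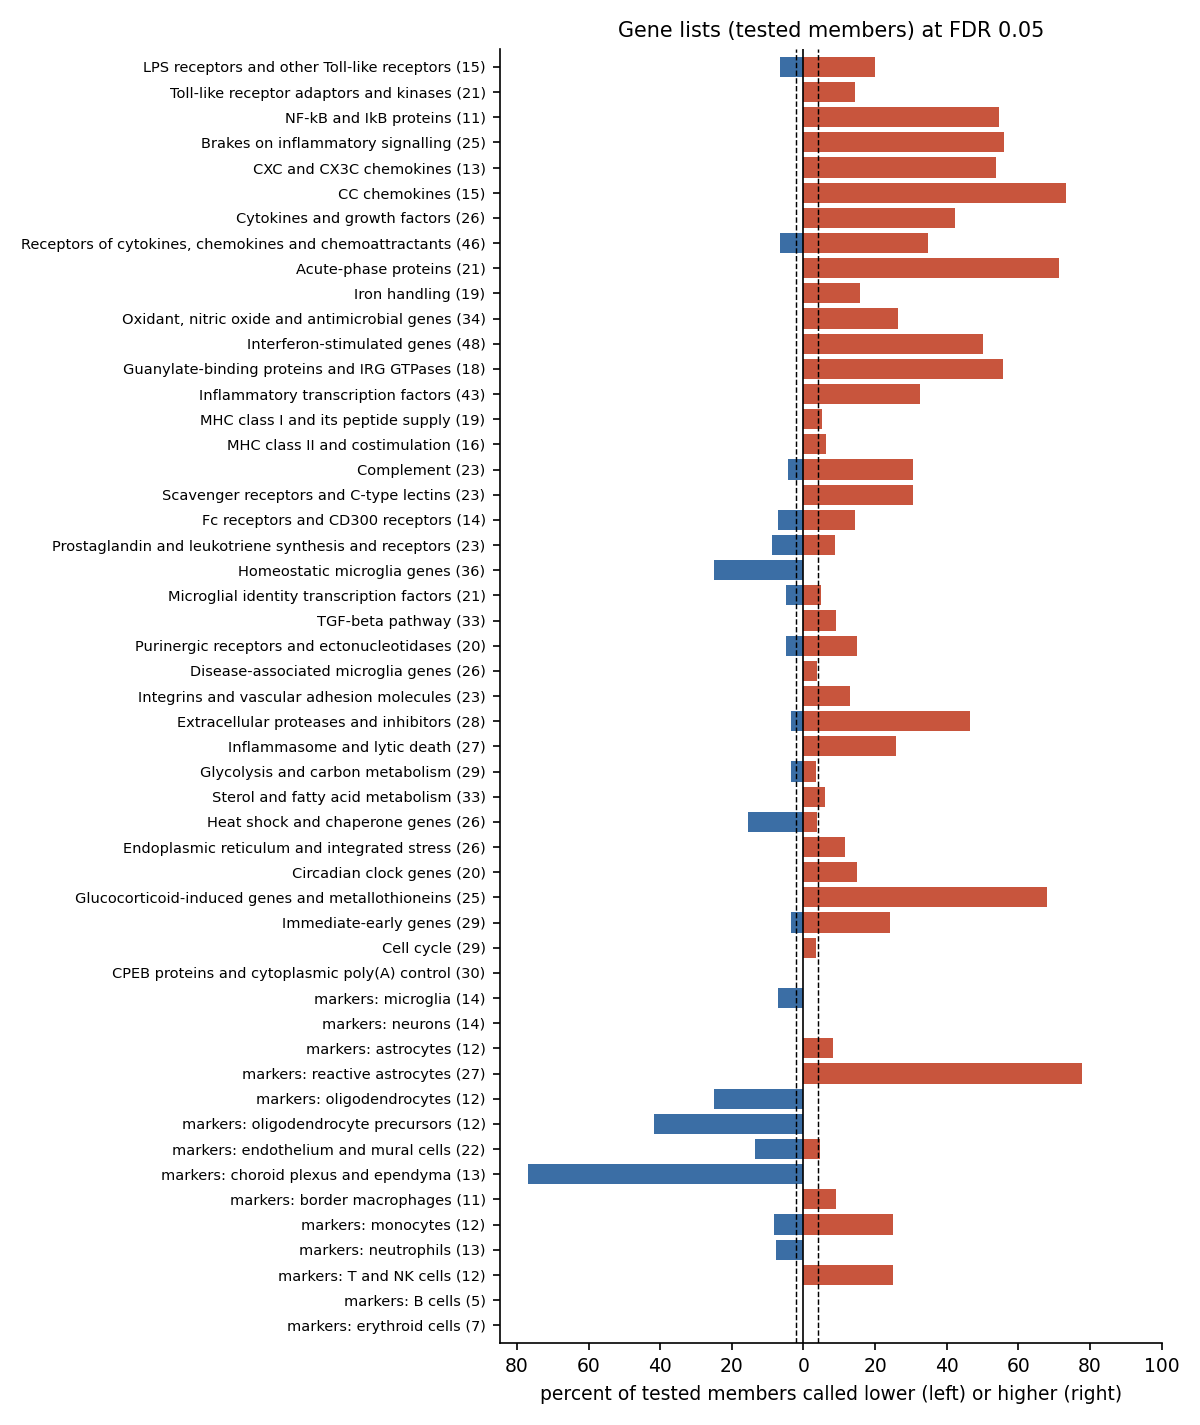
Percent of the tested members of each list called higher (red, to the right) or lower (blue, to the left) in CPEB1-KO-LPS against CPEB1-KO at an FDR below 0.05, with the number tested in brackets. The dashed lines mark the shares among all genes tested, 4.10% higher and 2.12% lower. CC chemokines, acute-phase, glucocorticoid-induced and reactive astrocyte genes extend furthest to the right and choroid plexus markers furthest to the left.

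CPEB1 represses or activates mRNAs together with partner proteins, whose genes edgeR did not call after LPS. Differences between the genotype labels for the paralogs are given below. Of 30 genes of CPEB proteins and cytoplasmic poly(A) control none was called by edgeR. Of these 6 had an unadjusted p below 0.05, all higher, and DESeq2 called 1, Pan2 (DESeq2 FDR 0.0183). The list had a median log2 fold change of 0.349 and TPM ranges apart for 10 of the 30, all higher, against 16.2% higher over all genes tested. The paralogs Cpeb2 (log2 fold change 0.24 ± 0.22, FDR 0.6) and Cpeb3 (log2 fold change -0.03 ± 0.25, FDR 0.957) and the deadenylases Parn (log2 fold change 0.53 ± 0.21, FDR 0.161) and Pan2 (log2 fold change 1.25 ± 0.36, FDR 0.0569) were among them. A difference that was not called at this depth and number of animals is not shown to be absent.

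The same contrast in the wild-type libraries, which shares no sample with the one above, called 1900 genes higher (12.4%) and 2285 lower (14.9%). Both contrasts came from 1 fit and share its estimate of the spread, so their calls are not from independent tests. Of the 627 genes called higher in the libraries labelled knockout 479 were also called higher there (76.4%) and 2 were called lower, and of the 325 called lower 270 were called lower (83.1%) and none higher. The 749 genes called in the same direction were 78.7% of the calls with the knockout label and 17.9% of those in wild type. Across the 15295 genes the log2 fold changes of the genotypes had a Pearson correlation of 0.679, and across the 952 called genes of 0.934, given as descriptions since genes are not independent samples and the called genes were chosen on 1 of the axes. For Tnf the log2 fold change in wild type was 6.63 against 6.90, for Cxcl2 6.71 against 7.005, for Gpr34 -5.66 against -4.75, and for Cdkn1a 4.16 against 3.56.

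Whether the response differed between the genotype labels was tested for each gene as an interaction. At an FDR below 0.05, 1 of 15295 genes was called (0.00654%), and 2365 had an unadjusted p below 0.05. DESeq2 called 293 and limma-voom with quality weights 253. The 1 gene was Gm5512, a transcribed pseudogene (chr19:12905231-12906993, GRCm38.p6). It was read at 1.93, 0.63 and 1.63 TPM without LPS and 1.77, 0.64 and 1.13 TPM after it in the libraries labelled knockout and at 19.9, 12.6 and 50.1 TPM in WT and 0.2, 0.34 and 0.11 TPM in WT-LPS. Its interaction, the log2 fold change in knockout minus that in wild type, was 7.16 (FDR 0.0479). The groups of the knockout label overlapped, while those of the wild type did not, and the count of genes called was 1 without CPEB1-KO-LPS replicate 2 and 0 in each of the other leave-one-out fits. Of the 1005 list members tested edgeR called none for a difference between the genotypes, DESeq2 called 17 and limma-voom 12, with 8 called by both of the latter. Among these 8 were Slc2a5 (edgeR interaction 3.49, FDR 0.133, DESeq2 FDR 4.86e-05, limma-voom FDR 0.0399) and Gzma (edgeR interaction 2.15, FDR 0.195, DESeq2 FDR 0.0138, limma-voom FDR 0.0474). Of the other members with values above, DESeq2 called Cldn5, Cpeb3 and Timp1, and limma-voom Cpeb2 and Pfkfb3. The Cpeb1 paralogs had negative edgeR interactions, none of them called by edgeR (FDR 0.195 each). They were Cpeb2 (-1.14, limma-voom FDR 0.0399), Cpeb3 (-1.39, DESeq2 FDR 0.0266) and Cpeb4 (-0.99, DESeq2 FDR 0.0216).

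**Figure D5:**
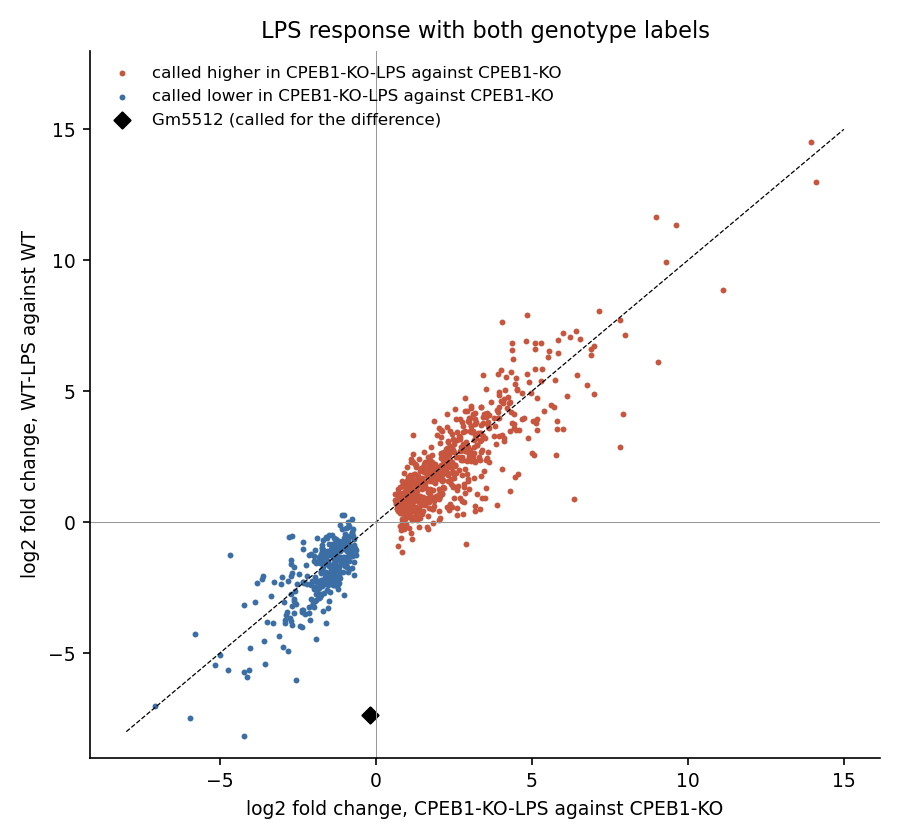
Log2 fold change after LPS in the libraries labelled knockout (x axis) and in wild type (y axis) for the 627 genes called higher (red) and 325 called lower (blue) with the knockout label, and for Gm5512 (black diamond). The dashed line marks equal change. Of the red points 609 and of the blue points 321 have the same sign on both axes, and Gm5512 lies near 0 on the x axis and at -7.36 on the y axis.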

How the data were processed

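RNA of 12 microglial preparations, 3 for each of 4 groups, was sequenced as poly(A) libraries. The authors deposited a table of expected counts per gene for all libraries and a table of TPM (each gene's length-normalised share of transcripts). Per the submitters' processing notes, the tools were RSEM and cutadapt and the build was mm10, without versions. RSEM divides reads shared by near-identical genes by estimate, and such genes are uncertain. Whether counting used strand is not stated in the labels.

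The deposited expected counts of 23845 genes were rounded to whole numbers, filtered by edgeR's filterByExpr with the groups, which left 15295, and scaled by TMM (edgeR 4.0.16, R 4.3.3). The quasi-likelihood test was fitted to all 12 libraries as 4 group means with 8 residual degrees of freedom, so that the groups share 1 estimate of the spread, and p-values were adjusted by Benjamini-Hochberg over all genes tested. The standard error is the log2 fold change divided by the root of the F statistic. The deposited TPM were used for levels only. In a test of the fit on simulated counts, where no other genes were changed and genes of low level were not among those changed, 93 of 100 genes changed 4-fold and 25 of 100 changed 2-fold were called. Replicates are separate animals according to the labels. Exact permutation of 3 against 3 libraries cannot give a p below 0.1, so no such test was used.

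A fold against 0 counts is a bound set at 3 counts over the group, and ratios on 1 to 3 counts carry exact 95% intervals that cover counting error only. Alternatives were DESeq2 1.42.0, its size factors, limma 3.58.1 on log2(TPM + 1) and log2(TPM + 0.1), limma-voom with quality weights, other count filters, a test against 1.5-fold, the knockout libraries alone, the replicate number as a block, and each library left out. Correlations of deviations from the group means were 0.378, 0.149 and 0.176 for same-numbered wild-type libraries and -0.029, 0.0875 and -0.138 in the knockout groups. Differently numbered wild-type libraries ran from -0.322 to 0.141, so only the pair of replicate 1 stood well above them. The labels give no shared source, and pairing is not shown. A block over the wild-type libraries was added after seeing the data.

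The part of the study described, the 52 gene lists and the tests were chosen with earlier results of these data known. Genes named are Cpeb1, the 15 called genes that rose most and the 15 that fell most, out of those of at least 5 mean TPM with groups apart, the 10 called with the largest difference of mean TPM, per list the 5 members of smallest p, the first 3 symbols of each list, and genes called in the interaction. Other genes, among them those that appear under other observations, were chosen after their values were seen. Promoter sequences and gene positions are from RefSeq (GRCm38.p6), which gave a promoter for 12109 of the genes tested.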

Additional observations from a re-analysis of the deposited data

Results flagged for a closer look

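The response of Gm5512, a transcribed pseudogene, differed between the genotype labels in the edgeR quasi-likelihood test of the interaction (log2 difference 7.16, FDR 0.0479). In wild type the 3 untreated libraries stood at 12.6 to 50.1 TPM and the 3 LPS libraries, from other animals, at 0.11 to 0.34 TPM. With the knockout label it stood at 1.93, 0.63 and 1.63 TPM without LPS and 1.77, 0.64 and 1.13 TPM after it. The untreated libraries of the genotypes did not overlap in this gene. The call was lost with the size factors of DESeq2 within edgeR and in the test against 1.5-fold, and no cause was tested.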

How the results depend on the processing

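The number of genes called, 952 in the edgeR quasi-likelihood test (627 higher, 325 lower), was 1655 with DESeq2 (977 and 678), 5006 with limma-voom and quality weights (2748 and 2258), 417 in the test against 1.5-fold (315 and 102) and 544 without CPEB1-KO replicate 1 and CPEB1-KO-LPS replicate 3, a choice made after seeing the data (357 and 187). Leaving out 1 library gave 355 to 703 calls (250 to 468 higher, 105 to 275 lower). The libraries labelled knockout alone gave 529 lower calls and 1316 in all. Other size factors (899), other count filters (955 and 929) and limma on log2(TPM + 0.1) (802) or log2(TPM + 1) (831) stayed within 1.5 times. The share called higher was 65.9%, and 54.9% with limma-voom. The cause of these differences was not tested, apart from the fewer samples or the stricter null of the fits named so.

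For the difference between the genotypes, 1 gene was called, against 293 with DESeq2, 253 with limma-voom, 2 on log2(TPM + 1), and 0 with other size factors, on log2(TPM + 0.1), against 1.5-fold and without both libraries. Leaving out 1 library gave 0 to 1.

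With the replicate number as a block over all 12 libraries 669 genes were called (447 higher, 222 lower), 1 in the interaction and 3720 in wild type, against 4185 there without it. With the block over the wild-type libraries alone, added after seeing the data, the counts were 1316 (845 and 471), 1 and 5270.

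Among 356 named genes the log2 fold change turned sign, with an FDR below 0.05 in the fit where it turned, for Alas2 (-1.80 without both libraries, -1.61 with limma-voom, -1.93 without CPEB1-KO-LPS replicate 3, to 0.94 over the other libraries left out), Hba-a2 (-1.39 with limma-voom, -1.79 without that library, to 0.52) and Hbb-bs (-1.34 with limma-voom, -1.73 without it, to 0.54). Others turned sign without such an FDR, among them Cd3e (-0.41 with all libraries, 1.45 without CPEB1-KO replicate 1) and Mki67 (0.62 with all libraries, -0.24 without CPEB1-KO-LPS replicate 3). Under DESeq2 39 of 354 gained a call and none lost one. With 3 animals a group, most 2-fold changes in the simulated counts were not called. Fewer genes were changed there than were called in the data, so the share detected in the data can differ.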

Other observations

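The genes below are in no list of the report and were chosen after their values were seen. They were taken from called genes whose groups did not overlap in TPM. They are therefore descriptions with the edgeR quasi-likelihood FDR beside them. Several receptors of myeloid cells rose from low levels. Trem1, which amplifies Toll-like receptor signals, was read at 0.62, 0.6 and 0 TPM without LPS and 11.3, 7.52 and 15.2 TPM after it (log2 fold change 4.83 ± 0.73, FDR 0.00155). Aoah, an enzyme that removes acyl chains from LPS and so inactivates it, was read at 0.65, 0.94 and 0.58 TPM without LPS and 9.75, 24.8 and 8.29 TPM after it (log2 fold change 4.01 ± 0.50, FDR 0.000354). Igsf6 was read at 14.6, 12.1 and 8.3 TPM without LPS and 91.3, 92.4 and 170.2 TPM after it (log2 fold change 3.43 ± 0.47, FDR 0.000839), and Ms4a6d at 30.4, 17.9 and 13.7 TPM without LPS and 236, 234 and 431 TPM after it (log2 fold change 3.95 ± 0.65, FDR 0.0028). The groups of all 4 genes were apart, which the choice required. Edn1, the vasoconstrictor endothelin, was read at 0.83, 1.03 and 0.83 TPM without LPS and 15.2, 27.2 and 44.1 TPM after it (log2 fold change 5.10 ± 0.57, FDR 0.00017, 4.49 without CPEB1-KO-LPS replicate 3), and Chil1, a chitinase-like secreted protein, at 9.66, 11.2 and 12.8 TPM without LPS and 171, 189.8 and 144 TPM after it (log2 fold change 3.94 ± 0.48, FDR 0.00032). Tarm1 had 1 count without LPS and 150 after it, a ratio of 147 (95% counting interval 25.96 to 5839).

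Among the genes that fell outside the lists was Pllp, a protein of myelin, at 30.7, 51.8 and 40.3 TPM without LPS and 8.68, 8.56 and 8.28 TPM after it (log2 fold change -2.21 ± 0.28, FDR 0.000476). Hes5, a target of Notch, was read at 15.7, 21.2 and 26.6 TPM without LPS and 5.37, 3.9 and 1.98 TPM after it (log2 fold change -2.47 ± 0.53, FDR 0.0137, held in 5 of 6 leave-one-out fits, FDR up to 0.06 without CPEB1-KO replicate 3). Neat1, the long non-coding RNA of paraspeckles, was read at 312, 312 and 297 TPM without LPS and 109, 109.7 and 40.9 TPM after it (log2 fold change -1.84 ± 0.38, FDR 0.0114), with CPEB1-KO-LPS replicate 3 the lowest. Bank1, an adaptor known from B cells, was read at 5.08, 5.07 and 5.01 TPM without LPS and 0.87, 0.95 and 1.1 TPM after it (log2 fold change -2.33 ± 0.30, FDR 0.000534).

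Apoc2, an apolipoprotein, was read at 0.68, 0.78 and 0.62 TPM without LPS and 9.93, 6.24 and 5.5 TPM after it (log2 fold change 3.35 ± 0.49, FDR 0.00118), and in wild type its log2 fold change was 0.49 (FDR 0.401). The difference between the genotypes did not pass the threshold (FDR 0.195 for the interaction). Spdef, an epithelial transcription factor, was read at 0.5, 0.15 and 0.37 TPM without LPS and 7.14, 6.93 and 9.02 TPM after it (log2 fold change 4.56 ± 0.54, FDR 0.000276), with 1.82 in wild type (FDR 0.0145, interaction FDR 0.195).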
